A study of Mus musculus with 8 samples.

Results

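The Gimap genes encode GTPases of the immunity-associated protein family, and 8 of them are described here across the 4 groups of an array experiment on mouse CD4+ T cells. The members were fixed by name as Gimap1, Gimap3, Gimap4, Gimap5, Gimap6, Gimap7, Gimap8 and Gimap9. All 8 were found among the 18193 genes with a probe set of a single symbol, and 11 of the 45101 probe sets on each array carried one of these names. Where a gene had several probe sets, the one with the highest mean log2 signal stands for it. Values are signals as the authors deposited them, on a linear scale, and differences are on the log2 scale. All 8 members lay above a working floor of signal 37.3 (the 40th percentile of all values) on all 8 arrays, so every member was tested.

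The cells, primary cultures from BALB/c mice, were kept for 1 h without stimulation or on plate-bound antibody to CD3 with soluble antibody to CD28, which together mimic the signals of an antigen-presenting cell. They then spent 6 h with 4 µM dorsomorphin, a small-molecule inhibitor of type I bone morphogenetic protein (BMP) receptors that also inhibits the kinase AMPK, or with its solvent DMSO. This gave 4 groups with 2 arrays in each: control, dorsomorphin alone, stimulation alone, and both agents. The labels give no genotype, age or sex of the mice and do not say whether a group's 2 replicates were different animals or cultures. The p-values rest on a spread between arrays that may be technical.

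GIMAP proteins share a GTP-binding domain of the AIG1 type, sit mostly on membranes of the endoplasmic reticulum, lysosomes or other vesicles, and are made chiefly in lymphocytes. In mice and rats the loss of Gimap5 leaves few peripheral T cells, and Gimap1 is also needed for mature lymphocytes to persist. Gimap3 is the closest relative of Gimap5 in the mouse. Gimap4 has been tied to the pace of T cell death, and the Gimap6 protein binds the autophagy protein GABARAPL2. Gimap7 hydrolyses GTP as a dimer, and Gimap8 is the longest protein of the family because it carries the GTP-binding domain in several copies. Less is known of Gimap9.

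In the RefSeq annotation of the GRCm38.p6 build the 8 genes lie on chromosome 6, from position 48647186 to 48770851. This is a span of 124 kb, and whether it holds other protein-coding genes was not examined. The order of the members is Gimap8, Gimap9, Gimap4, Gimap6, Gimap7, Gimap1, Gimap5 and Gimap3. The gaps between neighbouring members run from 2.40 kb to 15.2 kb. Gimap6 and Gimap3 are on the minus strand and the other 6 on the plus strand. Gene bodies run from 2.996 kb for Gimap9 to 13.7 kb for Gimap8.

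The bases before the annotated start are shown for 4 members. The course of Gimap4 and Gimap9 described below is not among those shown. Gimap8 and Gimap5 were the 2 members that fell with dorsomorphin in stimulated cells, and Gimap6 was the one whose dorsomorphin and control arrays overlapped. Gimap7 fell with stimulation and with dorsomorphin in unstimulated cells, as Gimap8 also did. The sequences are those of the C57BL/6J reference in the GRCm38.p6 table from RefSeq, not of BALB/c, and run 5′ to 3′ along the gene's own strand. Capitals mark matches to the letters GGAAGT (an ETS-type core), TGTGGT (a RUNX-type core) or TTCNNNGAA (a STAT-type core), on either strand.
Gimap8, chr6:48646984-48647185, plus strand: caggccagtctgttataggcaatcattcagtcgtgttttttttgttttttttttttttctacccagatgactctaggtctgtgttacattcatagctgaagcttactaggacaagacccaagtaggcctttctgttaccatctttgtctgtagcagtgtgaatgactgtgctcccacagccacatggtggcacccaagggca
Gimap5, chr6:48745947-48746196, plus strand: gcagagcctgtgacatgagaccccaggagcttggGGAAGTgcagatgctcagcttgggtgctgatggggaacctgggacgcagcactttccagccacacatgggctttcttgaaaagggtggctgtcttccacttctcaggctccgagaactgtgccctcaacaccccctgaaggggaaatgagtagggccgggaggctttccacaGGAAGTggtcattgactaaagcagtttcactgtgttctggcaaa
Gimap6, chr6:48708245-48708494, minus strand: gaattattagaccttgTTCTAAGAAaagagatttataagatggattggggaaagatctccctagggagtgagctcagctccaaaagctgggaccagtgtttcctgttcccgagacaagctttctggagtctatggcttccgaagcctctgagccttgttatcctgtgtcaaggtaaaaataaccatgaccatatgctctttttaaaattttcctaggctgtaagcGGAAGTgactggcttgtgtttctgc
Gimap7, chr6:48718371-48718620, plus strand: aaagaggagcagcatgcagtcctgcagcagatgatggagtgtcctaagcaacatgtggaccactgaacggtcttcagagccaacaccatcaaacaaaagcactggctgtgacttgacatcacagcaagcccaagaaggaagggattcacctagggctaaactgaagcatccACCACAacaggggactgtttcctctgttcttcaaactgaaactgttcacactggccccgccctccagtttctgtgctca

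Promoter windows were the 250 bases before a start, 9 windows for the 8 genes, with 2 overlapping ones for Gimap8. In the Gimap8 windows 202 and 75 bases lie before the annotated gene start, and in that of Gimap9 236. The other bases of these windows lie within the annotated gene. Of the 9 windows, the ETS-type core was found in 2, those of Gimap5 and Gimap6, against 19.7% of 32841 windows of the same length in the table. Gimap5 held it at positions -216 and -44 relative to the start, and Gimap6 at position -25. The RUNX-type core was found in 3 windows, those of Gimap4, Gimap7 and Gimap1, against 14.0% of all windows. The STAT-type core was found in the second window of Gimap8, at a place within the annotated gene, and in that of Gimap6, against 7.02%. A FOXO-type core (GTAAACA) was found in Gimap3 alone among these windows, against 3.17%, while a TCF-type core (CTTTGA), an Ikaros-type core (TGGGAA) and an E box (CAGCTG) were found in none of the 9, against 13.8%, 21.6% and 13.0%. An NFAT-type core (GGAAAA) was found in 3 windows, those of Gimap6, Gimap1 and Gimap3, against 20.4%. No motif was thus held by more than 5 members, the most being a CACC box (CACCC) in 5, which 52.0% of all windows also hold. Both strands were searched, and a match describes letters and not binding.

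The array set as a whole served as the frame. Arrays of 1 group correlated at 0.937 to 0.952 over 13983 tested genes (Pearson's r across genes, which are not independent replicates), and median signals ran from 45.4 to 74.5, lowest for stimulated replicate 2. The CD4+ label was checked against Cd4, Cd3d, Cd3e, Cd3g, Thy1 and Cd5. Their summed signal was 55376 and 56570 on the control arrays, 13442 and 19308 with dorsomorphin, 39681 and 41533 in stimulated cells, and 18865 and 19328 in stimulated cells with dorsomorphin. Of these 6 genes, 1 fell with stimulation, 5 fell with dorsomorphin in unstimulated cells and 2 in stimulated cells. Cd4 itself read 2073 and 1758 in control cells and 694.6 or less on each of the other arrays, and did not pass with stimulation (limma adjusted p = 0.0646) or with dorsomorphin (adjusted p = 0.0685). Summed signals of 7 B cell markers were 569.5 and 670.5 in control cells and 310 to 570.1 elsewhere. None of these markers was under the floor on every array, but Cd79a was above it on the 2 control arrays alone (51.9 and 43.7). The 2 CD8 T cell markers summed to 347 and 487 in control cells against 160 to 316 on the other arrays, and neither was under the floor on every array. The 8 myeloid markers summed to 6279 and 7527 in control cells against 3365 to 5000 on the other arrays, and the 6 endothelial markers to 1764 and 2154 against 200.1 to 1013, most of it Pecam1, with Vwf under the floor on every array. The 4 natural killer markers summed to 1119 and 1368 in control cells against 266 to 458 elsewhere, with Klra8 under the floor on every array. The CD4 T, CD8 T, myeloid, natural killer and endothelial sums were thus highest in control cells, as most members were, and their part in the results below was not tested. Single markers did not all follow their sums. Cd5 read 8119 and 7521 in control cells and 12288 and 13229 after stimulation, while the CD4 T sum fell. Cst3, the largest of the myeloid signals, read 3498 and 3609 in control cells and 3483 and 3208 with dorsomorphin. After stimulation Cst3 read 2723 and 2470. Cd8a read 60.1 and 54.3 in control cells and 108.9 and 80.2 after stimulation, whereas Cd8b1 read 426.5 and 292.2, then 180.7 and 115.9. Nkg7 read 126.1 and 126.8 in control cells and 239.1 and 305.5 after stimulation, whereas Klrd1 read 1194 and 972.7, then 68.9 and 37.1. In such bulk samples fewer cells of a type and less RNA per cell cannot be told apart.

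The first comparison asked how stimulation alone changes the family. It lowered 6 of 8 members, Gimap1, Gimap4, Gimap6, Gimap7, Gimap8 and Gimap9, and raised 0, while 14.4% of all tested genes fell and 8.98% rose, 23.4% in all (limma, Benjamini-Hochberg adjusted p under 0.05 over 13983 genes). The median log2 difference of the 8 members was -1.38, beside -0.27 over all tested genes.

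Gimap9 read 9670 and 8877 on the control arrays and 3241 and 2512 on the stimulated arrays. Both stimulated values lay below both control values, and the log2 difference was -1.70 ± 0.27 (SE, n = 2 per group, limma adjusted p = 0.0140), which leaves 30.8% of the control level. Gimap7 read 3020 and 3471.5 in control cells and 1216 and 1223 after stimulation, a log2 difference of -1.41 ± 0.24 (adjusted p = 0.0159). The 2 stimulated arrays were thus nearly equal for Gimap7. Gimap6, the GABARAPL2 partner, went from 14573 and 13005 to 6339 and 4728, a log2 difference of -1.33 ± 0.26 (adjusted p = 0.0205).

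Gimap8 fell from 14618 and 17026 to 7353 and 4237, and Gimap4 from 29899 and 32910 to 16444 and 9220. For both genes stimulated replicate 2 was the lower stimulated array by a wide margin, and neither gene's groups overlapped. Their log2 differences were -1.50 ± 0.33 (adjusted p = 0.0266) and -1.35 ± 0.31 (adjusted p = 0.0317). Gimap1 had the smallest fall, from 6972 and 6852 to 3962 and 3734, and stood at the edge of the threshold (-0.85 ± 0.23, adjusted p = 0.0499). Gimap3 did not pass (adjusted p = 0.0548), although its log2 difference of -1.75 ± 0.50 was the most negative of the 8. Its stimulated arrays read 4383.5 and 2175, against 10858 and 9888 in control cells. With quantile normalization, the 60th percentile filter, 16 added to each signal or a variance trend, or without stimulated replicate 1, Gimap3 was called too, with adjusted p-values from 0.0103 to 0.0490.

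Gimap5 took the other direction. It read 655.4 and 608.5 in control cells and 1212 and 893.8 after stimulation, a log2 difference of 0.72 ± 0.26 that did not pass (95% interval 0.07 to 1.37, adjusted p = 0.101). Its groups did not overlap either, as was the case for all 8 members and for 67.1% of all tested genes. Whether Gimap5 differs from the other members was not tested. Gimap5 is represented by 1 probe set, and where in the gene that probe set lies was not examined.

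The count of 6 rests on single arrays. Without control replicate 1, without control replicate 2 or without stimulated replicate 2, limma called 0 members, with 5, 6 and 7 of 8 at an unadjusted p under 0.05. In these fits it called 0 and 0 of 13983 genes, and 261 up and 419 down without stimulated replicate 2, with 3794, 3813 and 3953 at that unadjusted p. Without any 1 dorsomorphin array, with or without stimulation, it called 4, and it called 2 when only the 4 arrays compared were fitted and 1 (Gimap9) after median centring. Median centring moved the median difference of all genes from -0.27 to 0.08 and that of the members from -1.38 to -1.02, and turned the split of all calls from 1256 up and 2013 down to 1001 and 1040. Cyclic loess gave 1594 up and 1601 down. With cyclic loess, quantile normalization or a filter at the 60th percentile, limma also called Gimap5 as higher. All members kept the sign of their stimulation difference under all settings tried.

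**Figure D1:**
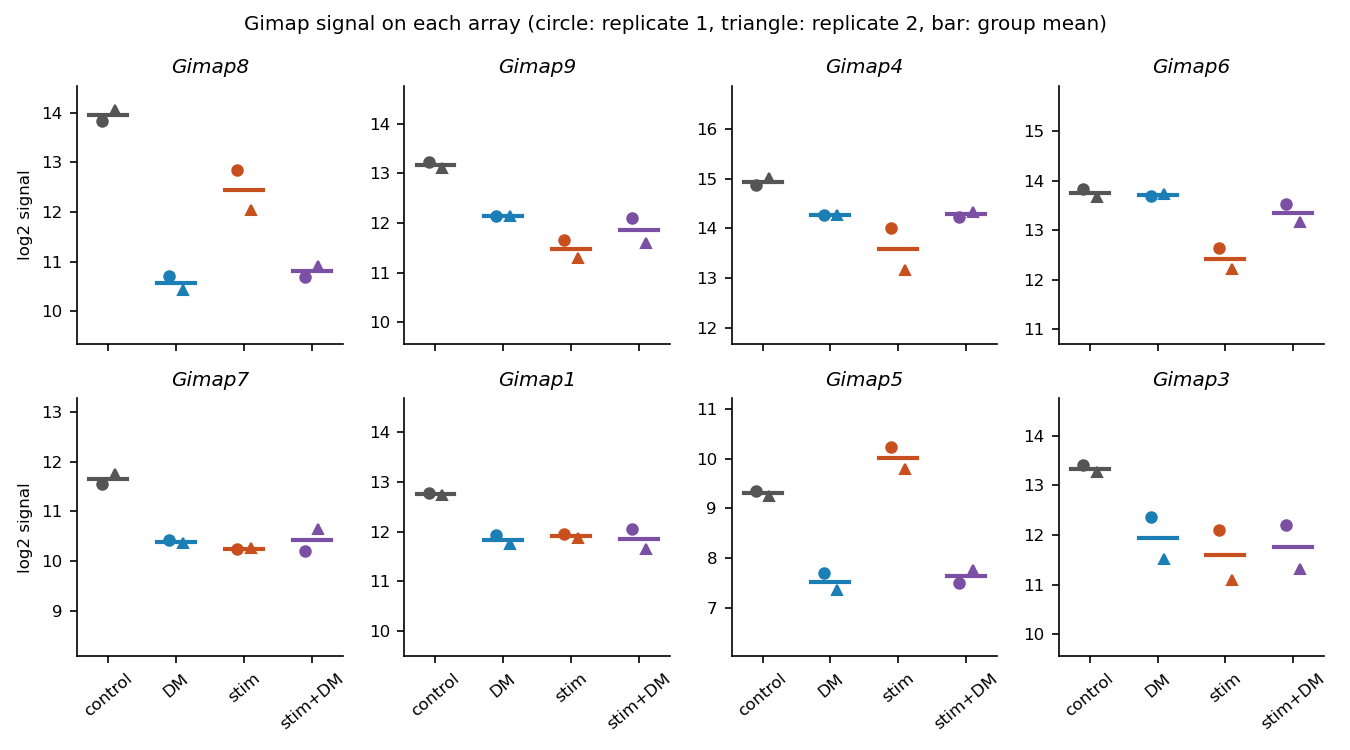
Log2 signal of each Gimap gene (vertical axis, each panel spanning the same number of log2 units) on the 8 arrays, in control cells, cells with dorsomorphin (DM), stimulated cells (stim) and stimulated cells with dorsomorphin (stim+DM); circles are replicate 1, triangles replicate 2 and bars group means, with genes in chromosomal order. The panels of all genes but Gimap5 are highest in control cells, while Gimap5 is highest in stimulated cells and Gimap8 and Gimap5 are low in both dorsomorphin groups.

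In unstimulated cells, the next question was how dorsomorphin alone changes the family. Gimap8, Gimap5 and Gimap7 fell, 0 members rose and 5 did not pass, while 11.1% of all tested genes fell and 1.92% rose, 13.1% in all. The median of the members was -1.15, beside -0.24 over all tested genes. The control arrays are the same as in the first comparison, so a fall in both rests in part on the same 2 values.

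Gimap8 had the largest response of the family. It read 14618 and 17026 in control cells and 1668 and 1376 with dorsomorphin, 9.60% of the control level and a log2 difference of -3.38 ± 0.33 (SE, n = 2 per group, limma adjusted p = 0.0109). The 2 dorsomorphin arrays were close to each other and far below both control arrays. Gimap5 dropped from 655.4 and 608.5 to 206.7 and 163.8, or -1.78 ± 0.26 (adjusted p = 0.0174). Gimap7 dropped from 3020 and 3471.5 to 1377 and 1312, or -1.27 ± 0.24 (adjusted p = 0.0286).

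Gimap1 and Gimap9 narrowly missed the threshold. Gimap1 read 3907 and 3425 with dorsomorphin (-0.92 ± 0.23, adjusted p = 0.0556) and Gimap9 read 4516 and 4523 (-1.04 ± 0.27, adjusted p = 0.0579), both with arrays clear of the control arrays. Gimap3 read 5241 and 2946, with a log2 difference of -1.40 ± 0.50 (adjusted p = 0.122), and Gimap4 read 19738 and 19811, with one of -0.67 ± 0.31 (adjusted p = 0.212). Gimap6 was the exception: its dorsomorphin arrays read 13161 and 13498 and lay within the range of the control arrays. The log2 difference of Gimap6 was -0.05, with a 95% interval of -0.68 to 0.58 (adjusted p = 0.929). Groups did not overlap for the other 7 members and for 65.5% of all tested genes.

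Within the family the dorsomorphin differences in unstimulated cells thus ran from -3.38 to -0.05 log2 units, and the stimulation differences from -1.75 to 0.72. Without control replicate 1 or 2, limma called 0 members and 0 genes, with 4 and 5 members and 3004 and 2838 of 13983 genes at an unadjusted p under 0.05. Without dorsomorphin replicate 2 it called 1 member, Gimap8, and without dorsomorphin replicate 1 it called 2, Gimap5 and Gimap8. Gimap7 was not called with median centring, no filter on dim genes, probe sets averaged per gene or only the 4 arrays compared (adjusted p from 0.0552 to 0.149). Quantile normalization called 5 members, beside 370 up and 1380 down of all genes, and the fit with a variance trend called 6, beside 706 up and 2397 down. All of these members were lower with dorsomorphin.

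**Figure D2:**
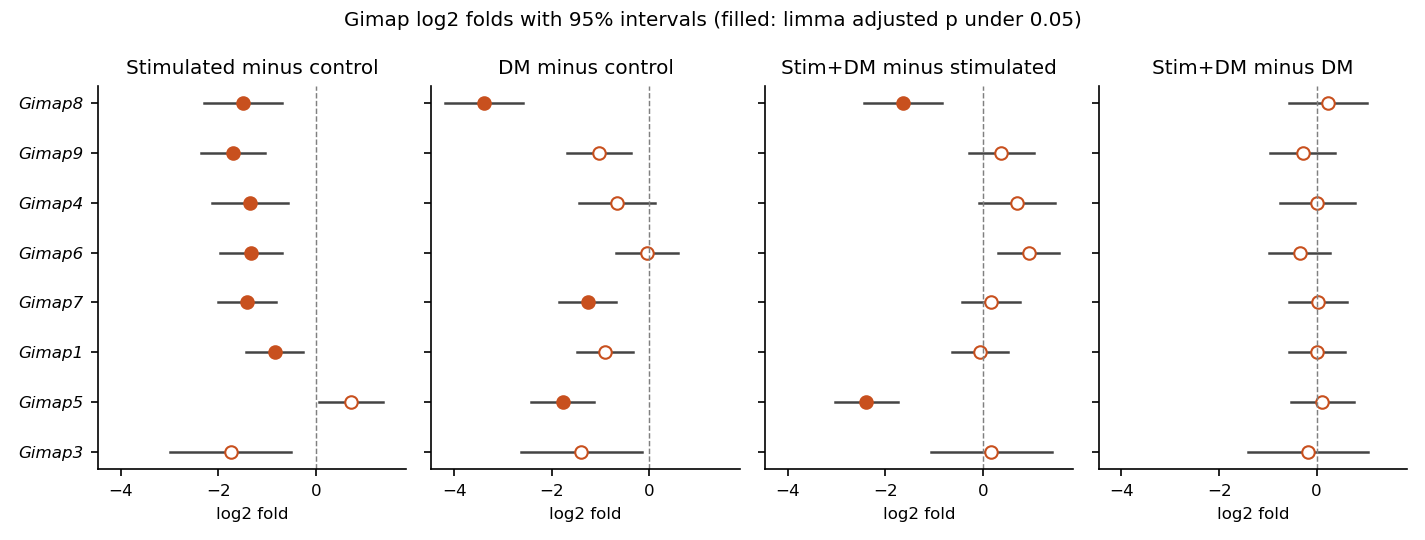
Log2 difference of each Gimap gene (horizontal axis) in 4 comparisons, with dorsomorphin written DM; lines are limma 95% intervals and filled points have an adjusted p under 0.05. The filled points are 6 genes for stimulation, Gimap8, Gimap7 and Gimap5 for dorsomorphin in unstimulated cells, and Gimap8 and Gimap5 for dorsomorphin in stimulated cells, with none for stimulation in the presence of dorsomorphin.

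The third comparison asked what dorsomorphin does when the cells are stimulated. Gimap5 and Gimap8 fell, 0 members rose and 6 did not pass, while 12.4% of all tested genes fell and 9.71% rose, 22.1% in all. The median of the members was 0.17, beside 0.07 over all tested genes. Gimap5, highest in stimulated cells at 1212 and 893.8, read 181.9 and 217.2 with dorsomorphin added, 19.1% of the stimulated level and a log2 difference of -2.39 ± 0.26 (SE, n = 2 per group, limma adjusted p = 0.00628). Gimap8 went from 7353 and 4237 to 1647 and 1936, or -1.64 ± 0.33 (adjusted p = 0.0206). Both genes ended near the level that they had with dorsomorphin alone.

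Gimap6 and Gimap4 were higher on both arrays with dorsomorphin than on both stimulated arrays, and neither passed. Gimap6 read 11865 and 9204 against 6339 and 4728 (0.93 ± 0.26, 95% interval 0.30 to 1.56, adjusted p = 0.0507). Gimap4 read 19223 and 20679 against 16444 and 9220 (0.70 ± 0.31, adjusted p = 0.172). The arrays of the other 4 members overlapped between the groups, with log2 differences of -0.06 for Gimap1, 0.16 for Gimap7, 0.17 for Gimap3 and 0.37 for Gimap9. Groups did not overlap for 4 of 8 members and for 60.5% of all tested genes.

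Without either array of stimulated cells with dorsomorphin, limma called Gimap5 alone, and with only the 4 arrays compared it called 0 members and 0 genes, with 3 members and 4040 genes at an unadjusted p under 0.05. The rise of Gimap6 was called with a variance trend, the 60th percentile filter or 16 added to each signal, and that of Gimap4 without stimulated replicate 1. The split of all calls, 1358 up and 1738 down, became 689 and 1520 after median centring, which moved the median of all genes from 0.07 to -0.18, and 1141 and 2159 after cyclic loess.

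The fourth comparison asked whether stimulation still changes the family when dorsomorphin is present. Limma called 0 members and 0 of 13983 genes (0.0%), with 0 members and 539 genes (3.85%) at an unadjusted p under 0.05. All 8 differences lay between -0.35, for Gimap6, and 0.24, for Gimap8. Gimap7 read 1377 and 1312 with dorsomorphin and 1170 and 1597 with both agents (0.02, 95% interval -0.57 to 0.62), and Gimap1 read 3907 and 3425 against 4241.6 and 3188.5 (0.01, 95% interval -0.57 to 0.58). For Gimap9, whose difference without dorsomorphin was -1.70, the interval with dorsomorphin ran from -0.95 to 0.37. For Gimap3 it ran from -1.42 to 1.06, wide enough to hold a fall as large as that of Gimap4 without dorsomorphin (-1.35), so this comparison bounds Gimap3 loosely. Arrays of the 2 groups overlapped for 6 members, and Gimap6 and Gimap9 had lower values on both arrays with stimulation. Groups thus did not overlap for 2 of 8 members, near the 27.5% of all tested genes.

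The interaction tests the difference between the stimulation effect with dorsomorphin and that without it. It was positive for 7 members, negative for Gimap5, and past the threshold for 0, in a test that called 12 of 13983 genes (0.0858%), 5 of them up (0.0358%) and 7 down (0.0501%). At an unadjusted p under 0.05 stood 6 of 8 members and 26.4% of all genes. Gimap7 had the smallest adjusted p, with an interaction of 1.43 ± 0.34 log2 units (limma adjusted p = 0.0835), followed by Gimap8 (1.74 ± 0.46, adjusted p = 0.0963) and Gimap9 (1.41 ± 0.38, adjusted p = 0.0982). The value for Gimap4 was 1.36 ± 0.44, for Gimap3 1.57 ± 0.71, for Gimap6 0.98 ± 0.36, for Gimap1 0.85 ± 0.33 and for Gimap5 -0.61 ± 0.37. The median was 1.39 for the members and 0.35 for all tested genes. Median centring moved these medians to 0.91 and -0.12. At an unadjusted p under 0.05 (limma) it left 2 members and 2783 of 13983 genes, and 0 members were called. Without stimulated replicate 1 limma called Gimap4 and Gimap8, among 661 genes up and 142 down. With the 60th percentile filter it called 3 members, beside 1231 up and 636 down of 9640 genes, and with a variance trend 5 members, beside 1298 up and 738 down of 13983. Each member called had a positive interaction.

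**Figure D3:**
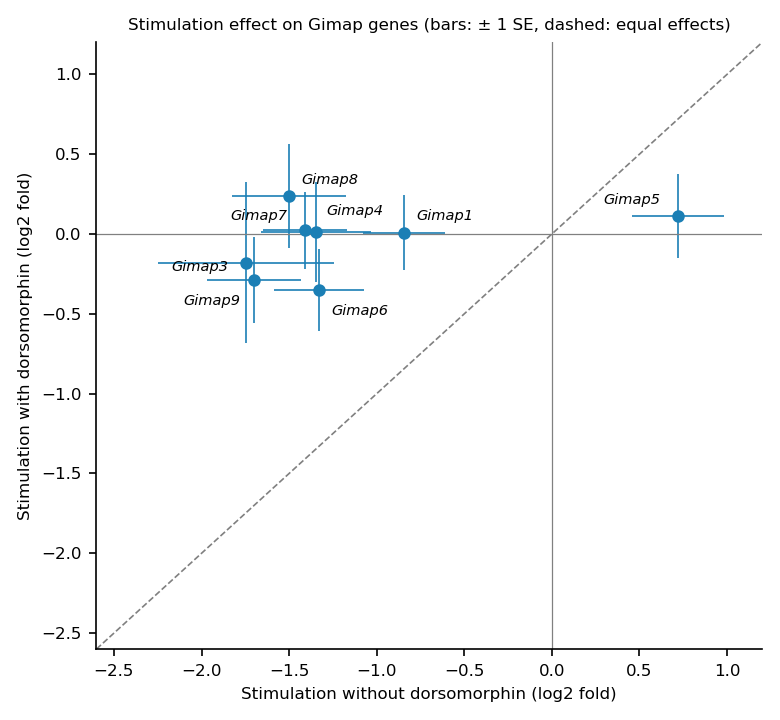
Log2 effect of stimulation on each Gimap gene without dorsomorphin (horizontal axis) and with dorsomorphin (vertical axis); points are limma estimates from 2 arrays per group, bars are 1 SE each way, and the dashed line marks equal effects. The points spread from -1.75 to 0.72 along the horizontal axis and from -0.35 to 0.24 along the vertical axis, and 7 of them lie above the dashed line.

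Cells that received both agents were also set against control cells. Gimap5, Gimap7, Gimap8 and Gimap9 fell, 0 members rose and 4 did not pass, while 6.31% of all tested genes fell and 0.915% rose, 7.22% in all. Gimap8 stood at 11.3% of the control level (-3.14 ± 0.33, limma adjusted p = 0.0186), Gimap5 at 31.5% (-1.67 ± 0.26, adjusted p = 0.0278), Gimap9 at 39.9% (-1.32 ± 0.27, adjusted p = 0.0444) and Gimap7 at 42.2% (-1.24 ± 0.24, adjusted p = 0.0411). Gimap6 kept the highest share, 75.9%, with both arrays below both control arrays and no call (-0.40, 95% interval -1.03 to 0.23). Without any 1 of the 4 arrays compared, limma called 0 members and 0 genes, with 5 or 6 members and 2250 to 3485 of 13983 genes at an unadjusted p under 0.05. Without any 1 of the other arrays it called Gimap5 and Gimap8.

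By the distances between group means, and not by their order alone, the members can be described in 4 courses. By order of group mean, Gimap7 matched Gimap4, Gimap3 matched Gimap9 and Gimap6, and Gimap1 matched Gimap8. For Gimap1, Gimap3 and Gimap7 the control group was highest, and the other 3 groups stood close together, with overlapping arrays between neighbours in that order except dorsomorphin and stimulated cells for Gimap7 (a mean difference of 0.14 log2 units). For Gimap4 and Gimap9 the control group was also highest, and stimulated cells were lowest by 0.68 and 0.37 log2 units. Gimap3 and Gimap7 had stimulated cells lowest too, by 0.17 and 0.14. The arrays of the 2 dorsomorphin groups overlapped for Gimap4 and those of stimulated cells with and without dorsomorphin for Gimap9. For Gimap6 the control and dorsomorphin groups overlapped at the top, stimulated cells with dorsomorphin came next, and stimulated cells were lowest. For Gimap8 and Gimap5 the 2 dorsomorphin groups overlapped at the bottom, with control cells above stimulated cells for Gimap8 and below them for Gimap5.

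Across the 8 arrays Gimap1 was the member most like the others, with a Pearson r of 0.96 against the mean of the other 7, while Gimap5 (0.29) and Gimap6 (0.28) were the least alike. Pairs of members ran from -0.58 for Gimap5 with Gimap6 to 0.93 for Gimap1 with Gimap3, whereas Gimap5 with Gimap8 stood at 0.80 and Gimap5 with its close relative Gimap3 at 0.22. These are descriptions over 8 arrays in 4 groups that share normalization and hybridization, and carry no test.

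A further probe set was on the array for 3 members. For Gimap4 it read 16861 and 18683 in control cells and 7861 and 3907 after stimulation, a log2 difference of -1.68 against -1.35 on the one used, and it too passed (limma over all probe sets, adjusted p = 0.0315). For Gimap6 the further probe set read 3528 and 1141 on the 2 control arrays and 1154 and 188 after stimulation. Its replicates differed several-fold, and its difference of -2.11 did not pass (adjusted p = 0.209). For Gimap7 the further probe set read 184.4 and 163.0 in control cells and 74.8 and 80.1 after stimulation, and its difference of -1.16 did not pass (adjusted p = 0.211). With dorsomorphin in unstimulated cells its difference was -0.93 (limma over all probe sets, adjusted p = 0.335), against -1.27 on the one used. Its interaction was 0.96 (adjusted p = 0.524). In the stimulation comparison and in that of dorsomorphin in unstimulated cells, both probe sets of each of the 3 genes had the same sign.

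Proteins that partner GIMAP proteins or act in the same survival and autophagy steps were taken as a list of 16 genes, of which 15 were measured and tested. With stimulation 2 rose and 2 fell (list median -0.09), with dorsomorphin in unstimulated cells 0 rose and 1 fell (0.25), and with dorsomorphin in stimulated cells 5 rose and 1 fell (-0.02). Bcl2, the survival protein that has been reported to bind Gimap3 and Gimap5, read 1534 and 1417 in control cells and 278.4 and 128.5 with dorsomorphin, a log2 difference of -2.96 ± 0.62 (limma adjusted p = 0.0355). In stimulated cells it read 4167 and 1512, and 388.7 and 687.8 with dorsomorphin added (-2.28 ± 0.62, adjusted p = 0.0486). Bcl2 thus fell in both dorsomorphin comparisons, as did Gimap5 and Gimap8. Bcl2l1, which encodes the survival protein Bcl-xL, rose with stimulation (1.74 ± 0.38, adjusted p = 0.0269).

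Gabarapl2, the autophagy partner of Gimap6, rose with dorsomorphin in stimulated cells, from 2543 and 2819 to 4989 and 7084 (1.15 ± 0.26, adjusted p = 0.0290), as did the related Map1lc3b (1.42, adjusted p = 0.0119) and Gsk3b, a kinase whose activity has been linked to Gimap5 (1.10, adjusted p = 0.0321). Gsk3b had fallen with stimulation (-1.51, limma adjusted p = 0.0156), from 2533 and 2237 in control cells to 938.6 and 743.1. With both agents Gsk3b read 2080 and 1539, still below both control arrays. The death-promoting Bbc3 fell with stimulation (-1.63, adjusted p = 0.0236) and rose with dorsomorphin in stimulated cells (2.12, adjusted p = 0.0118). Nfatc1, a transcription factor of T cell activation, rose with stimulation (1.80, adjusted p = 0.0214). Mcl1 and Bcl2l11, a survival protein and a death-promoting one, passed in none of the comparisons.

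Genes of naive T cell survival and its transcription factors formed a list of 22, with 19 tested. Stimulation lowered 10 and raised 0 (list median -1.15), dorsomorphin lowered 1 and raised 0 in unstimulated cells (-0.52), and it raised 5 and lowered 0 in stimulated cells (1.03). Il7r, the receptor chain for the survival cytokine interleukin-7, read 26026 and 28847 in control cells and 2810 and 504.2 after stimulation (-4.52 ± 0.92, limma adjusted p = 0.0226). Foxo1, which drives genes of quiescence and homing in T cells, fell with stimulation (-1.60, adjusted p = 0.0269) and rose with dorsomorphin in stimulated cells (1.71, adjusted p = 0.0225). Lef1 (-1.94, adjusted p = 0.0103) and Ets1 (-1.37, adjusted p = 0.0170), transcription factors of naive T cells, fell with stimulation, and both rose with dorsomorphin in stimulated cells (0.97 and 1.03). With dorsomorphin in unstimulated cells Foxo1 had a log2 difference of -0.12 and Ets1 of -0.37, neither past the threshold, beside -3.38 for Gimap8. Klf2, a factor of T cell homing, fell with stimulation (-2.53, adjusted p = 0.0292), as did Tsc22d3 (-4.12) and Pik3ip1 (-4.96). Ikzf1, Runx1 and Runx3, transcription factors of lymphocytes, passed in no comparison.

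Other GTPases of immune cells, those of the interferon-induced Irg, Gbp and Mx families, served as a family of comparison. Of 16 listed, 11 had a probe set of their own and 10 were tested. Limma called 0 of them in each of the 6 comparisons, and their median log2 difference with stimulation was 1.39, against -1.38 for the Gimap genes. The largest of these stimulation differences was that of Iigp1, named after its values were seen, at 3.47 ± 1.16 (adjusted p = 0.0810). Replicates could differ widely. In stimulated cells with dorsomorphin Iigp1 read 606.3 and 6903, and Gbp2, also named after its values were seen, 1201 and 13858. The 0 calls thus do not show that these genes did not respond. The difference between the families was not tested.

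The 10 named protein-coding genes on either side of the cluster were listed beside it, and 17 of these 20 were tested. With stimulation 0 rose and 1 fell (list median -0.23), and with dorsomorphin in unstimulated cells 1 rose and 0 fell (-0.28). The gene that fell was Tmem176b, the next one after Gimap3, a membrane protein gene, from 601.8 and 489.3 to 180.8 and 74.4 (-2.23 ± 0.55, adjusted p = 0.0364). Tmem176b did not pass with dorsomorphin (-1.93, adjusted p = 0.0723). Other neighbours that did not pass had differences as large as those of members. Among them was Zfp467, named after its values were seen, at -2.89 with dorsomorphin (adjusted p = 0.0681). Both dorsomorphin arrays of Zfp467 lay under the working floor (25.7 and 7.93), so the size of its difference rests on dim values. Members and neighbours were not tested against each other. Rarres2, the gene that rose with dorsomorphin, lay under the working floor on both control arrays (18.0 and 19.4) and at 39.7 and 32.7 with dorsomorphin, so its level was near the floor throughout.

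**Figure D4:**
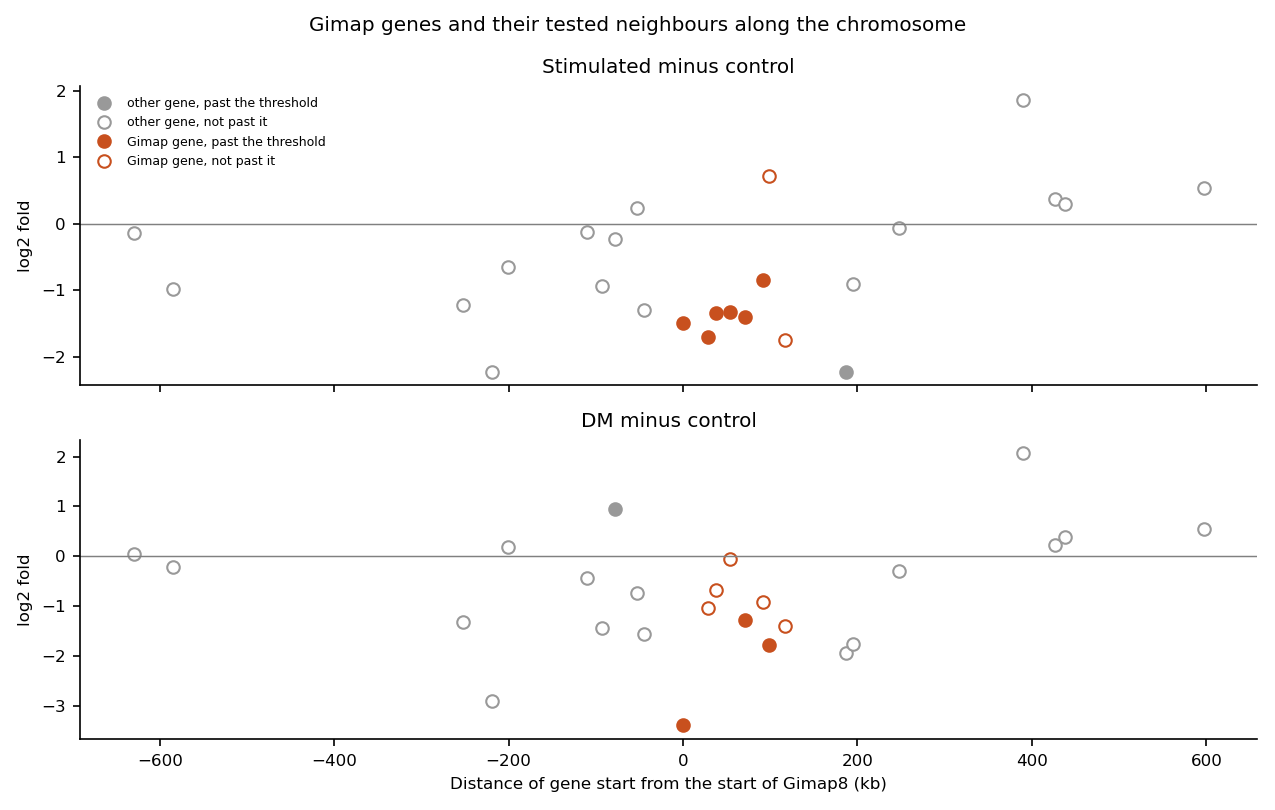
Log2 difference (vertical axis) of the Gimap genes (orange) and of tested neighbouring genes (grey) against the distance of the gene start from that of Gimap8 in kb (horizontal axis), for stimulation (top) and dorsomorphin (DM, bottom) against control; filled points have a limma adjusted p under 0.05. In the top panel 6 of 8 Gimap genes and 1 of 17 neighbours are filled, and in the bottom panel 3 of 8 and 1 of 17.

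The genes whose signals over the 8 arrays were most like the mean centred profile of the 8 members were Cacna2d4 (Pearson r 0.999), Pnpla7 (0.997), Coro1b (0.995), Skap2 (0.993), Sclt1 (0.992), Vrk3 (0.992), Pold4 (0.990) and Macf1 (0.990), out of 13975 compared. The profile itself is high on the 2 control arrays and low on the other 6. Cacna2d4, a calcium channel subunit gene, read 767.1 and 767.2 in control cells and 59.7 to 136.8 on the other arrays, and Coro1b, an actin regulator gene, 2453 and 2479 against 928.1 to 1352. Both genes thus had their 2 highest values in control cells, as Gimap1 did. Members with large changes weigh most in such a mean, and the profile describes Gimap5 and Gimap6 least well (r of 0.29 and 0.28 with the other members).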

How the data were processed

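Each of 45101 probe sets has a linear intensity on every array in the table the authors deposited. The submitters' processing notes name RMA and affy without versions. RMA gives log2 values, whereas these are linear and had the same trimmed mean (500) on every array, and no source used here gives the step behind this. Precision is limited by the number of arrays. Of the probe sets, 34945 had 1 gene symbol in the platform annotation, 932 several, 9160 none and 64 were controls. Current symbols were found through Entrez identifiers for 34741.

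Log2 of the deposited intensity was fitted for 13983 genes above a floor on at least 2 arrays (the 40th percentile over the whole table, log2 5.22). All 8 arrays entered 1 model in limma 3.58.1 under R 4.3.3, with 6 contrasts, two-sided p-values adjusted by Benjamini-Hochberg over all genes tested and a threshold of 0.05. The fit was tested on simulated data. The members and gene lists were chosen with earlier results of these data known. All members are named; list genes are named where past the threshold in a comparison (at most 6 a list, smallest adjusted p first) or fixed by name, and the 8 genes most like the mean member profile by Pearson's r. Bax, which the rule names, was not analysed here. Alternatives were other scalings, filters, probe sets, variance models, a replicate block and leaving out each array.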

Additional observations from a re-analysis of the deposited data

How the results depend on the processing

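The counts of members called were 6 for stimulation, 3 for dorsomorphin in unstimulated cells, 2 for dorsomorphin in stimulated cells, 0 for stimulation with dorsomorphin, 4 for both agents against control and 0 for the interaction. For stimulation the count was 1 with median centring and 2 with only the arrays compared. For dorsomorphin in unstimulated cells it was 5 with quantile normalization, with the 60th percentile filter and with 16 added before log2, and 6 with the variance trend. It was 2, without Gimap7, with median centring (adjusted p of Gimap7 0.149), no filter on dim genes (0.0587), probe sets averaged per gene (0.0835) or only the arrays compared (0.0552). For dorsomorphin in stimulated cells it was 0 with only the arrays compared. For both agents against control it was 2 with median centring and with probe sets averaged per gene, 1 with no filter on dim genes and 0 with only the arrays compared. For the interaction it was 3 with the 60th percentile filter and 5 with the variance trend.

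Leaving out each array in turn gave 0 to 6 for stimulation, 0 to 3 for dorsomorphin in unstimulated cells, 1 to 3 for dorsomorphin in stimulated cells, 0 to 2 for both agents against control and 0 to 2 for the interaction. No called member changed sign under any setting. Among differences that were not called, Gimap6 ran from -0.28 to 0.17 with dorsomorphin in unstimulated cells, and in stimulated cells Gimap1 ran from -0.32 to 0.14, Gimap3 from -0.34 to 0.67 and Gimap7 from -0.09 to 0.39. The causes were not tested.

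Over all genes, and apart from leaving out arrays, the number called moved by more than 1.5 times in each comparison with calls: from 3269 to between 1668 and 4408 for stimulation, from 1825 to between 844 and 3103 for dorsomorphin in unstimulated cells, from 3096 to between 0 and 4098 in stimulated cells, from 1010 to between 0 and 2183 for both agents against control, and from 12 to between 0 and 2036 for the interaction. Leaving out each array in turn gave 0 to 2940, 0 to 1591, 1000 to 2648, 0 to 760 and 0 to 803 genes in the same order.

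The replicate numbers 1 and 2 recur in every group, and the labels do not say what they mark. Deviations of same-numbered arrays correlated at 0.0687 to 0.178 between groups over all genes tested. With a replicate block limma called 7 members for stimulation, beside 1499 up and 2498 down of 13983 genes. It called 6 for dorsomorphin in unstimulated cells (393 up and 1924 down of all genes) and 3 in stimulated cells (1672 up and 1968 down). For both agents against control it called 5 (175 up and 1106 down), and for the interaction 0 (0 up and 0 down). The block added Gimap3 for stimulation (adjusted p = 0.0169), Gimap1, Gimap3 (0.0392) and Gimap9 for dorsomorphin in unstimulated cells, Gimap6 for dorsomorphin in stimulated cells and Gimap3 for both agents.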
